A study of Rattus norvegicus with 39 samples.

Results

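The cortex of rats that had received lipoic acid and calorie restriction in opposite orders was compared, using 6 of the 39 libraries of the series. AL+LA>CR rats were fed ad libitum (AL) on a diet with α-lipoic acid (LA) and switched at 12 months to calorie restriction (CR) without LA (pools 22, 23 and 24). CR>AL+LA rats were restricted first and switched at 12 months to AL feeding with LA (pools 28, 29 and 30). The samples were taken by their treatment labels, 3 of 3 pools for each of the 2 groups. All were male BN rats (substrain BN/SsNOlaHSD) killed at 28 months, all were fed AL without LA until 2 months of age, and each pool joined the cerebral cortex RNA of 2 rats. LA was given at 1.5 g per kg of diet, and CR rats received 55% of the daily intake of control rats. The comparison asks whether the cortex at 28 months differed when both treatments had been received in opposite orders. The question arises because the study classes CR>AL+LA, but not AL+LA>CR, among its long-lived cohorts. The rats also differed in the diet they were eating at death. The first diet ran from 2 to 12 months and the second from 12 to 28 months. Each treatment therefore also differed between the groups in its length and in the age at which it was given. Order, present diet, length and age cannot be told apart in this comparison alone.

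α-Lipoic acid is a sulphur-containing cofactor that is bound to mitochondrial enzyme complexes such as pyruvate dehydrogenase, and when fed it acts on the redox state of cells. CR is a lowered food intake without malnutrition that extends life in many rodent strains. Both have been studied in the ageing brain for their effects on oxidative damage, mitochondrial function and the immune activity of glia.

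Ribosome-depleted RNA was sequenced, and the values are counts of reads per Ensembl gene. Reads on genes ranged from 3804105 to 4984254 in the AL+LA>CR pools and from 2754552 to 4250747 in the CR>AL+LA pools. The share of reads that did not align was 40.4, 34.1 and 37.5% in AL+LA>CR and 39.6, 38 and 41.2% in CR>AL+LA (exact two-sided permutation test, p = 0.4, where 3 pools against 3 cannot give a p below 0.1). The 28S ribosomal RNA gene Rn28s held 0.439, 1.78 and 3.37% of the reads on genes in pools 22, 23 and 24, and 3.15, 3.04 and 3.16% in pools 28, 29 and 30 (exact two-sided permutation test, p = 0.4). The CR>AL+LA pools were therefore alike in this measure and the AL+LA>CR pools were spread over a wide range. The same was seen across the transcriptome. Over the 9782 genes with a mean of at least 10 CPM (counts scaled to a common library size), the median SD of log2 CPM was 0.184 among the AL+LA>CR pools and 0.152 among the CR>AL+LA pools. No pool was a copy of another pool of its group among the 6: chi-square divided by its degrees of freedom, for the counts of a pair of pools, was 16.1 to 48.6 within AL+LA>CR and 3.09 to 3.36 within CR>AL+LA. Each pool was therefore kept as a separate sample, and the p-values below measure the spread between pools of 2 rats. In tissue of this kind, fewer cells of a type and less RNA per cell cannot be told apart.

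**Figure D1:**
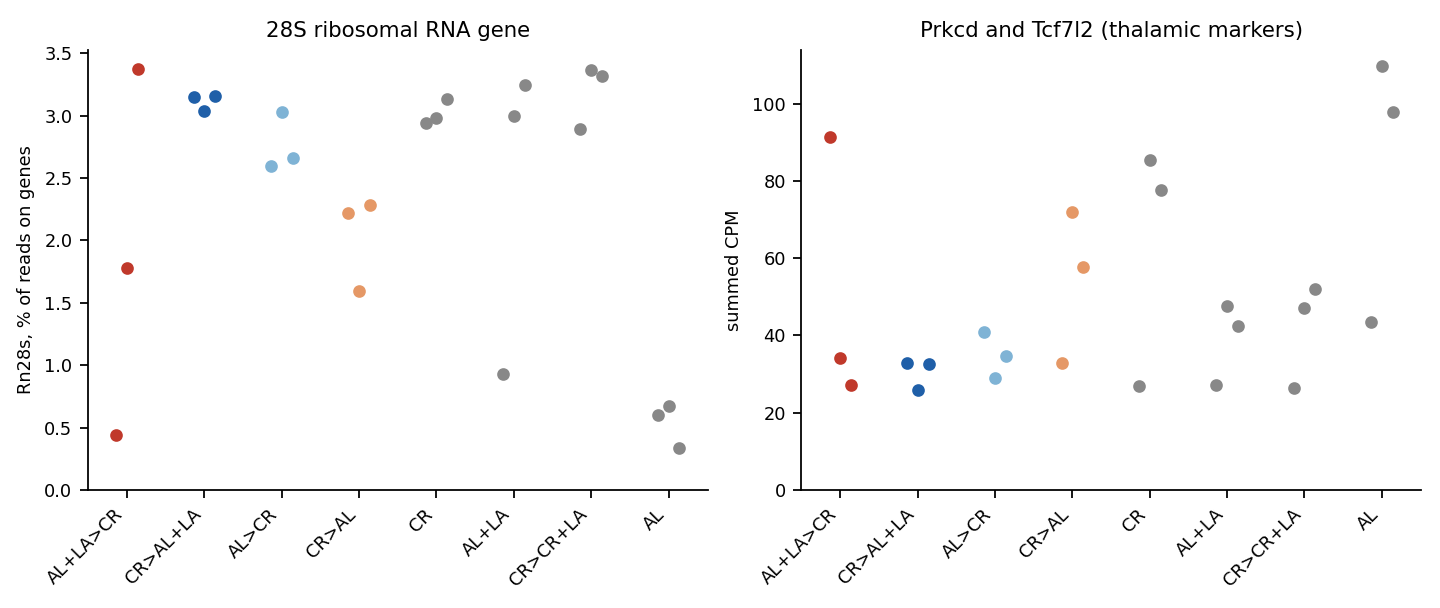
Share of the reads on genes that fell on Rn28s (left, %) and summed CPM of the thalamic markers Prkcd and Tcf7l2 (right) in each pool of the 8 groups at 28 months; each point is 1 pool of 2 rats. Pool 22 of AL+LA>CR held the lowest Rn28s share of the 6 pools compared (0.439%) and the highest thalamic sum (91.4 CPM).

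The order of treatment gave few differentially expressed (DE) genes. Of 17230 genes tested with edgeR's quasi-likelihood test, 6 were DE at a Benjamini-Hochberg adjusted p under 0.05, which is 0.0348% of the genes. Of these, 2 were higher (0.0116%) and 4 were lower (0.0232%) in AL+LA>CR than in CR>AL+LA. An unadjusted p under 0.05 was reached by 948 genes (5.5%), 405 of them higher (2.35%) and 543 lower (3.15%), and the median log2 fold change over all genes was 0.01. The lower genes described here are Cd74, Git1 and Arpp19, and both genes that were higher are annotated as mitochondrial tRNA genes. The 6 calls rested on the 6 libraries alone: no gene was DE when the spread was estimated over all 13 groups of the series (smallest adjusted p = 0.13 in edgeR's quasi-likelihood test, with 771 genes at an unadjusted p under 0.05) or without pool 30 (smallest adjusted p = 0.0747, with 705 genes at an unadjusted p under 0.05), while 24 genes were DE without pool 24. Without pool 22, whose Rn28s share stood apart, 5 genes were DE, 4 of them among the 6.

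Cd74, the invariant chain that escorts MHC class II molecules to the endosome, was the most strongly called of the protein-coding genes. Its level was 51.8, 54.4 and 38.9 CPM in the AL+LA>CR pools and 90.0, 80.9 and 112 CPM in the CR>AL+LA pools. The highest AL+LA>CR pool stayed below the lowest CR>AL+LA pool. The mean was 48.3 ± 8.30 CPM (SD, n = 3) against 94.3 ± 16 CPM (SD, n = 3), a log2 fold change of −0.95 (SE 0.15, edgeR quasi-likelihood adjusted p = 0.00873). Cd74 was DE in 12 of the 15 alternative fits, and its log2 fold change stayed between −1.07 and −0.82 in all of them. Among the other groups at 28 months, Cd74 was lowest in rats fed AL throughout (20.6 to 46.7 CPM), which overlapped AL+LA>CR. The summed cerebellar markers of these AL pools were 1224, 35.7 and 1205 CPM, against 29.5 to 98.5 CPM in the 6 pools compared. The part of such tissue in the AL values was not tested. Cd74 was between 75.8 and 93.0 CPM in rats on lifelong CR and between 76.7 and 102 CPM in rats on lifelong AL+LA, both overlapping CR>AL+LA. In AL>CR (44.1 to 66.6 CPM) it overlapped AL+LA>CR alone, and in CR>AL (45.7 to 93.2 CPM) it overlapped both groups. CR>CR+LA, restricted throughout with LA added at the switch, was at 57.9 to 90.5 CPM and overlapped CR>AL+LA.

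The MHC class II molecules that Cd74 serves were also measured. The α chain genes RT1-Ba and RT1-Da and the β chain genes RT1-Bb and RT1-Db1 were not DE. All 5 members of the class II list lay below 0, with a median log2 fold change of −0.36 against 0.01 over all genes. RT1-Ba was at 68.8, 67.9 and 42.1 CPM in AL+LA>CR and at 71.3, 59.8 and 97.0 CPM in CR>AL+LA. The groups overlapped, the log2 fold change was −0.33 (SE 0.17), and the edgeR quasi-likelihood adjusted p was 0.905. RT1-Db1 was at 36.9, 31.2 and 20.6 CPM against 43.4, 25.8 and 46.7 CPM, again with overlap (log2 fold change −0.36, SE 0.21). RT1-Bb and RT1-Da had log2 fold changes of −0.36 and −0.29 and also overlapped. The summed level of the 5 genes was 231, 223 and 134 CPM in AL+LA>CR and 279, 223 and 348 CPM in CR>AL+LA. For all 4 chains, pool 24 was the lowest of the AL+LA>CR pools and pool 30 the highest of the CR>AL+LA pools.

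The stretches before the annotated starts of these genes are shown as background. Although 1 of the 5 was DE and the 4 others were not, all 5 lay below 0 and Cd74 was not tested against the 4 chains. A link between these sequences and the levels was not tested. The sequences are the 200 bases upstream of each start, 5′ to 3′, from RefSeq on the GRCr8 build, with the 5-letter core of the CCAAT box in capitals on either strand (CCAAT or its reverse complement ATTGG). The counts themselves were made on Rnor_5.0, and no coordinate was carried between the builds. Cd74 is on the + strand (chr18:56527006-56527205), RT1-Ba (chr20:4576857-4577056) and RT1-Da (chr20:4515215-4515414) are on the + strand, and RT1-Bb (chr20:4604119-4604318) and RT1-Db1 (chr20:4560163-4560362) are on the − strand.
Cd74: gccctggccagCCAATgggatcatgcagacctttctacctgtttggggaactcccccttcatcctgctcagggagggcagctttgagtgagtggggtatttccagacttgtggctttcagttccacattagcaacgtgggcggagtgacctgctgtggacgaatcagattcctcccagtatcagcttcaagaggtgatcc
RT1-Ba: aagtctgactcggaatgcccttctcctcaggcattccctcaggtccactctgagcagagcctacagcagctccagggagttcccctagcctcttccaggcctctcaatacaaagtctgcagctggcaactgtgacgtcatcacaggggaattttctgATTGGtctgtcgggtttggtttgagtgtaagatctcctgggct
RT1-Bb: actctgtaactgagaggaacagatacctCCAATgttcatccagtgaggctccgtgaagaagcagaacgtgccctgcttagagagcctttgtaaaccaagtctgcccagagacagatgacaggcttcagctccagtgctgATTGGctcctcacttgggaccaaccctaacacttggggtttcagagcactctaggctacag
RT1-Da: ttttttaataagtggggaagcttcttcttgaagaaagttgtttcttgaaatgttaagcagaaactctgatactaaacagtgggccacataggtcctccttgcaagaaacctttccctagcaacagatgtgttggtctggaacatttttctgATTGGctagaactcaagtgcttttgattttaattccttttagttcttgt
RT1-Db1: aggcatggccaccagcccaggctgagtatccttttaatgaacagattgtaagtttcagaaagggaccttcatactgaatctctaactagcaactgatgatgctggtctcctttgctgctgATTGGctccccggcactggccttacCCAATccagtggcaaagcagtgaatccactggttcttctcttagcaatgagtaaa
In each of the 4 chain genes an ATTGG lay within 100 bases of the start, with its first base 43 bases before the start in RT1-Ba, 61 in RT1-Bb, 49 in RT1-Da and 80 in RT1-Db1. In all 4 it was part of CTGATTGG, a run that either strand of this 200-base window held in 2.9% of the 33469 promoters of the table. In Cd74 the core was found only as CCAAT, 189 bases before the start, and CTGATTGG was not in the window. Only exact matches were searched, and the Cd74 stretch also held cgaatcag, which is close to CCAATCAG, the reverse complement of CTGATTGG. CCAAT or ATTGG occurred in 29.2% of all promoters over the same window, and ATTGG within 100 bases of the start in 9.4%.

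Git1 is a scaffold protein and Arf GTPase-activating protein found at synapses. Its values were 83.9, 73.3 and 80.3 CPM in AL+LA>CR and 135, 127 and 120 CPM in CR>AL+LA. The pools of each group lay close together and the groups were well separated (log2 fold change −0.70, SE 0.12, edgeR quasi-likelihood adjusted p = 0.0313). Git1 was DE in 9 of the 15 alternative fits and in 2 of the 6 that left out a pool. Over the 33 libraries outside the comparison Git1 ran from 67.2 to 193 CPM with a median of 114 CPM, so that both groups lay within the range of the series.

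Arpp19 encodes a small phosphoprotein that inhibits protein phosphatase 2A. For the identifier ENSRNOG00000020977 the values were 12.5, 11.7 and 17.1 CPM in AL+LA>CR and 31.6, 25.1 and 29.5 CPM in CR>AL+LA, which rested on 55 to 115 reads a pool. The groups did not overlap (log2 fold change −1.08, SE 0.20, edgeR quasi-likelihood adjusted p = 0.0436). The call was made in 6 of the 15 alternative fits and in 1 of the 6 that left out a pool. The 33 libraries outside the comparison ran from 6.67 to 25.3 CPM, so that they reached the lowest CR>AL+LA pool and none of the others. A different identifier with the same symbol, ENSRNOG00000023086, had a log2 fold change of −0.75 (SE 0.20) and was not DE. Reads that mapped to more than 1 place were left out by the authors, so that the split of reads between the Arpp19 copies is uncertain.

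Mitochondrial tRNA genes, which supply the tRNAs for translation inside mitochondria, made up the higher side. ENSRNOG00000032274 was at 383, 510 and 82.4 CPM in AL+LA>CR and at 58.4, 54.6 and 38.9 CPM in CR>AL+LA. The groups did not overlap, but pool 24 lay much nearer to CR>AL+LA than to its own group (log2 fold change 2.67, SE 0.35, edgeR quasi-likelihood adjusted p = 0.00103). ENSRNOG00000031685 was at 251, 616 and 266 CPM against 202, 146 and 114 CPM, and here pool 23 was far above the others (log2 fold change 1.28, SE 0.23, edgeR quasi-likelihood adjusted p = 0.0436). Such unevenness was also seen elsewhere, and ENSRNOG00000032274 ran from 88.5 to 799 CPM among the lifelong CR pools. ENSRNOG00000032274 was DE in 11 of the 15 alternative fits, and ENSRNOG00000031685 in 8 of 15 and in 3 of the 6 that left out a pool, with a log2 fold change of 0.73 without pool 23. Neither gene was DE in DESeq2, which called the 4 lower genes alone. All 10 tRNA genes that could be identified by biotype lay above 0, with a median log2 fold change of 0.35, but their summed level overlapped, at 24489, 35206 and 30963 CPM in AL+LA>CR and 27253, 24796 and 30532 CPM in CR>AL+LA.

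**Figure D2:**
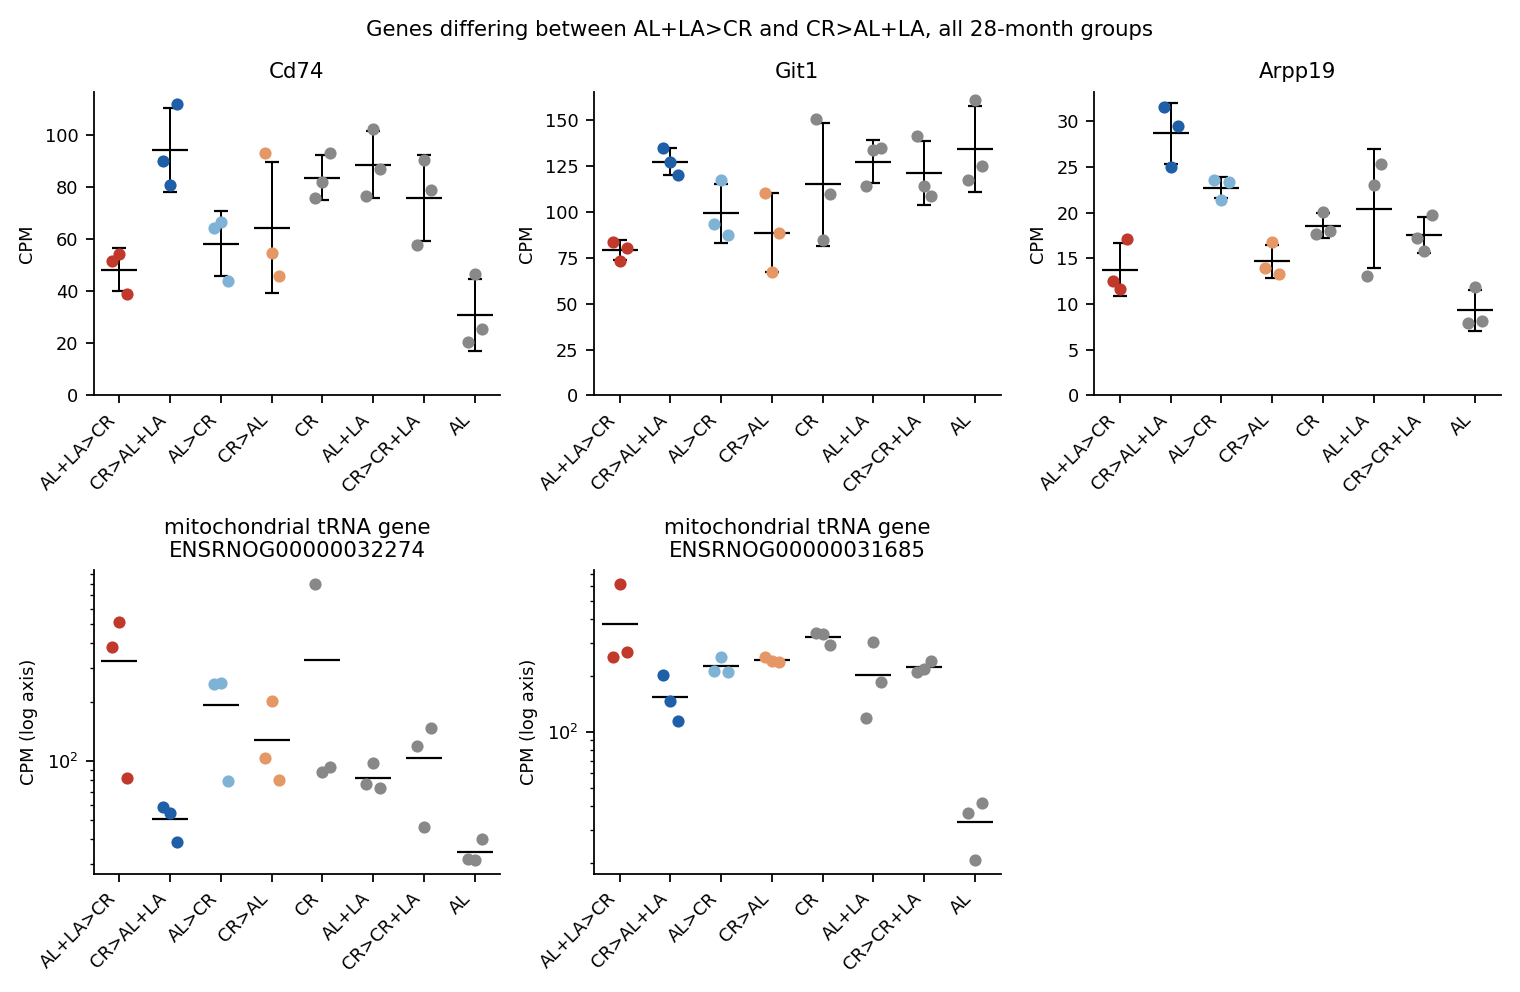
CPM of 5 of the 6 DE genes in each pool of the 8 groups at 28 months; points are pools, horizontal lines are means, and bars are SD (n = 3) except for the tRNA genes, which are on log axes without SD. AL+LA>CR and CR>AL+LA do not overlap in any panel, and the other groups spread over much of the range. The other groups stay below the highest CR>AL+LA pool for Cd74 (112 CPM) and Arpp19 (31.6 CPM). They also stay below the highest AL+LA>CR pool for ENSRNOG00000031685 (616 CPM).

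Genes of brain pathways were next examined as lists. The files give identifiers only, and symbols could be paired with 1666 of the 26123, all of them genes listed in the study's own tables and so a selected set. In 17 pathway lists, 162 members were tested and none was DE, while 19 had an unadjusted p under 0.05 (11.7%, against 5.5% of all genes), 13 with a higher and 6 with a lower level. Their median log2 fold change was 0.05. The share was above that of all genes, within a set that had itself been listed from comparisons of these libraries.

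Immediate-early genes, which respond to neuronal activity, had the highest median of the pathway lists. Of the 12 tested, 9 lay above 0 and the median log2 fold change was 0.25. Egr1, a transcription factor induced by synaptic activity, was at 159, 204 and 167 CPM in AL+LA>CR and at 140, 126 and 139 CPM in CR>AL+LA. These pools did not overlap, which held for 938 genes (5.44%) in this direction, and the change was not DE (log2 fold change 0.38, SE 0.12, edgeR quasi-likelihood adjusted p = 0.719). Dusp6, a phosphatase of the MAP kinase ERK, had a log2 fold change of 0.32 (SE 0.14) with overlapping pools.

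Circadian clock genes lay above 0 in 7 of 8 cases, with a median log2 fold change of 0.17. Cry2, a repressor of the clock, was at 123, 116 and 118 CPM in AL+LA>CR and at 86.7, 90.0 and 84.4 CPM in CR>AL+LA. The pools were tight and apart, and Cry2 was still not DE (log2 fold change 0.44, SE 0.12, edgeR quasi-likelihood adjusted p = 0.476). Bhlhe40, a further clock repressor, had a log2 fold change of 0.33 (SE 0.15).

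The pathways closest to lipoic acid were thinly covered. Of the lipoate-dependent enzymes only Amt, the aminomethyltransferase of the glycine cleavage system, could be named. It was at 12.5, 14.2 and 12.5 CPM in AL+LA>CR and at 10.4, 15.6 and 13 CPM in CR>AL+LA, with a log2 fold change of −0.00 (SE 0.23). Of 13 antioxidant genes none was DE, and the median log2 fold change was 0.02. Gstp1, a glutathione transferase, was at 73.3, 66.7 and 66.1 CPM against 62.0, 55.6 and 51.8 CPM (log2 fold change 0.27, SE 0.13). Txndc17, a thioredoxin-like protein, had a log2 fold change of 0.46 (SE 0.20). The pools of both genes were apart, and neither was DE.

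Nuclear genes of oxidative phosphorylation numbered 42, of which 27 lay above 0 and none was DE, with a median log2 fold change of 0.12. Cox6a1, a subunit of cytochrome c oxidase, was at 260, 241 and 270 CPM in AL+LA>CR and 217, 217 and 199 CPM in CR>AL+LA (log2 fold change 0.27, SE 0.11). Atp5c1, the γ subunit of ATP synthase, pointed the opposite way, at 41.4, 53.9 and 72.2 CPM against 76.3, 69.2 and 87.6 CPM (log2 fold change −0.49, SE 0.16). Of the mitochondrially encoded chain only 2 genes were named, and ATP8 was at 501, 1214 and 889 CPM against 1097, 968 and 1018 CPM, with pool 22 well below the other pools.

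Synaptic and signalling lists held no DE gene. None of 7 glutamate receptor genes, 4 GABA genes, 12 synaptic vesicle genes and 9 genes of the postsynaptic scaffold was DE, and the list medians were −0.02, 0.15, 0.07 and 0.07. Nrgn, which binds calmodulin in dendrites, had a log2 fold change of −0.30 (SE 0.14). Of 6 insulin pathway genes, Pik3r1, the regulatory subunit of PI3 kinase, was at 65.6, 66.2 and 69.0 CPM in AL+LA>CR and 75.7, 78.1 and 104 CPM in CR>AL+LA without overlap (log2 fold change −0.36, SE 0.14), and was not DE. None of 7 cholesterol synthesis genes or 9 neuropeptide genes was DE, with list medians of −0.02 and 0.09.

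The 23 genes that the study names for a dietary memory were all measured, and none was DE in this direct contrast. They had been chosen on these same libraries by another route, a comparison of lists of DE genes between cohorts, and are no independent evidence. Their median log2 fold change was −0.08, with 10 above and 13 below 0. Ppm1f, a phosphatase of calcium/calmodulin-dependent kinases, was at 12.0, 17.6 and 16.8 CPM in AL+LA>CR and 18.9, 19.8 and 29.1 CPM in CR>AL+LA (log2 fold change −0.54, SE 0.22). Dusp8, a MAP kinase phosphatase, was at 20.1, 18.5 and 19.4 CPM against 27.2, 28.3 and 23.2 CPM (log2 fold change −0.45, SE 0.18). The pools of both were apart, in the direction in which 896 genes (5.2%) were. All 6 genes of histone acetylation and deacetylation lay below 0, with a median of −0.10, and Kat6a, an acetyltransferase, had a log2 fold change of −0.27 (SE 0.15).

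No gene of the heat shock list or of the glucocorticoid and fasting list was DE. Sult1a1, a sulphotransferase, was at 13.6, 20.2 and 27.6 CPM in AL+LA>CR and 10.4, 13.9 and 13.7 CPM in CR>AL+LA (log2 fold change 0.66, SE 0.24). Hspa1b, an inducible heat shock protein listed under a pair of identifiers that may share reads, was at 2.69, 3.40 and 3.19 CPM against 2.47, 8.68 and 6.28 CPM for ENSRNOG00000045654 (log2 fold change −0.92, SE 0.43). The pools overlapped in both cases, and the medians were 0.11 for the glucocorticoid list and −0.08 for the heat shock list.

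**Figure D3:**
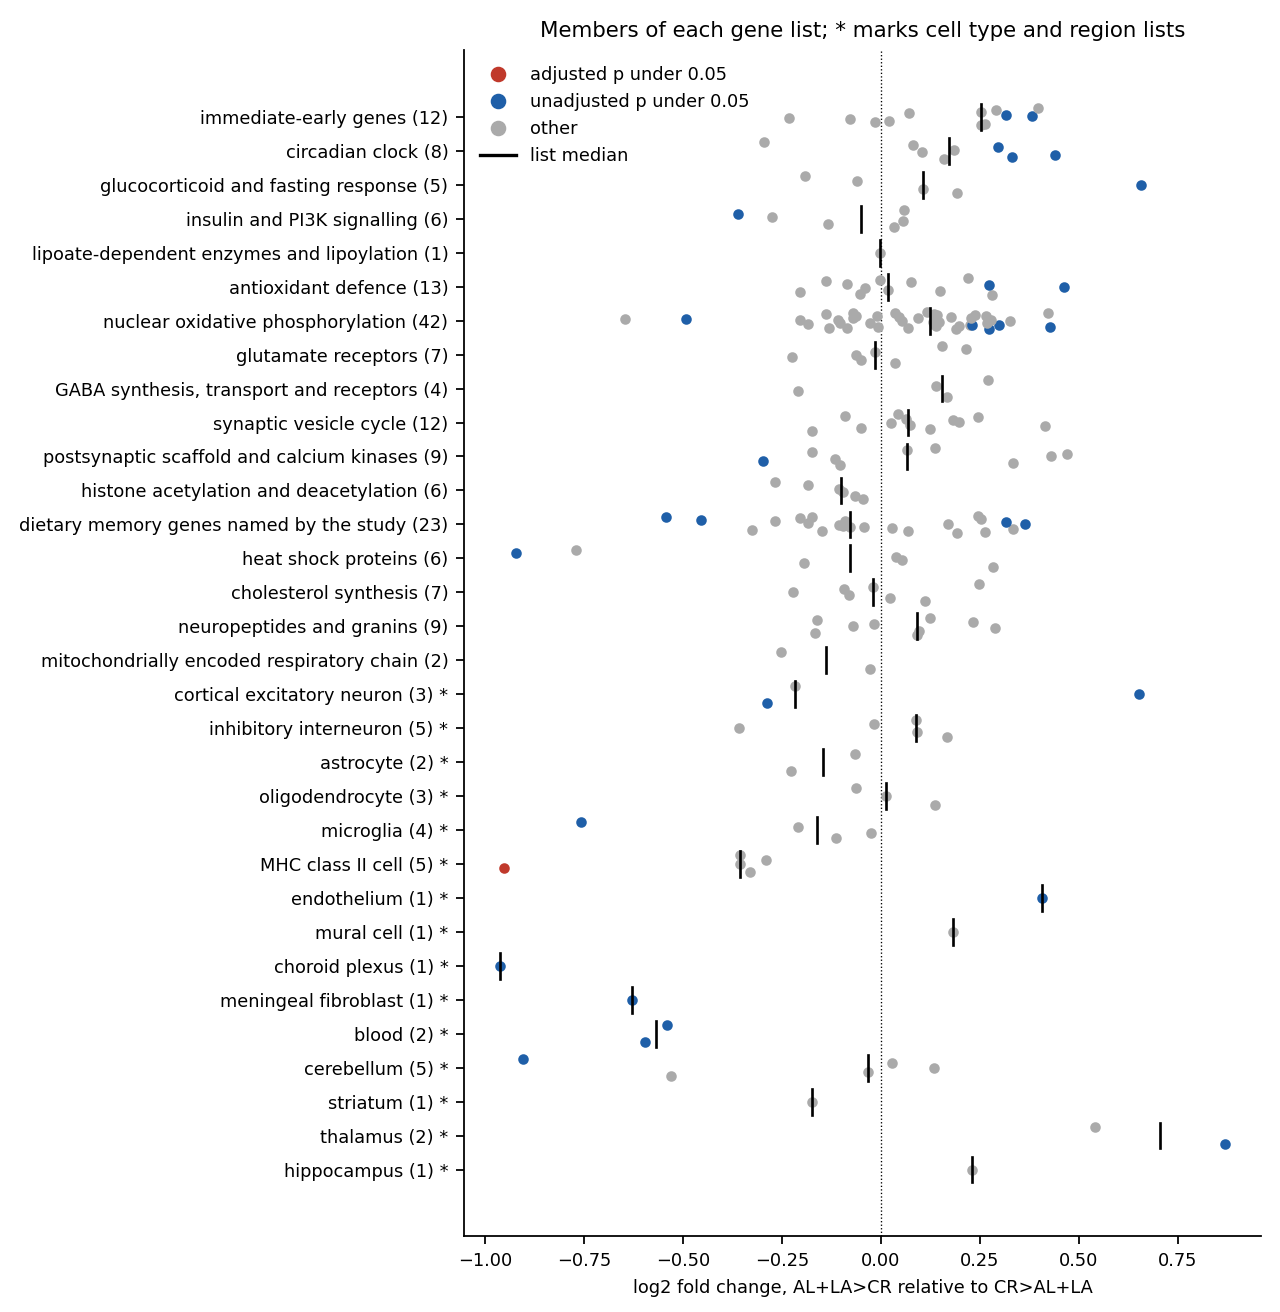
Log2 fold change of each tested member of the pathway lists and, marked with an asterisk, of the cell type and region lists; the number tested stands beside each list and vertical bars are list medians. Cd74 is the single DE member, at −0.95, and most members lie between −0.5 and 0.5.

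Markers of cell types and of neighbouring regions were read in the same way. Of 37 markers tested, Cd74 was the only DE gene, and 11 had an unadjusted p under 0.05 (29.7%, against 5.5% of all genes), 3 higher and 8 lower. These markers, too, could be named only where the study had listed them from comparisons of these libraries. Markers of cortical excitatory neurons and of interneurons were found in all 6 pools. Their summed levels were 217 to 274 CPM and 479 to 568 CPM in AL+LA>CR, and 281 to 295 CPM and 488 to 516 CPM in CR>AL+LA. In the lifelong AL pools the excitatory sum was 629.5, 231 and 485 CPM and the interneuron sum 724, 544 and 732 CPM. The cerebellar sum of these pools was 1224, 35.7 and 1205 CPM. The neuron markers were thus high where cerebellar markers were, and cannot settle the tissue label. Itgam, an integrin of microglia and other myeloid cells, was at 8.96, 9.77 and 5.80 CPM in AL+LA>CR and 16.7, 9.92 and 15.7 CPM in CR>AL+LA (log2 fold change −0.76, SE 0.27). The summed level of the 4 microglial markers was 53.5 to 73.7 CPM against 71.5 to 79.9 CPM, which overlapped, and their part in the Cd74 result was not tested.

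Blood markers lay in the same direction as Cd74, and their part in that result was not tested. Hba-a2, an α globin, was at 137, 149 and 141 CPM in AL+LA>CR and 227, 248 and 165 CPM in CR>AL+LA. The pools were apart, and the log2 fold change was −0.60 (SE 0.13, edgeR quasi-likelihood adjusted p = 0.247). Hba2, a near copy that may share its reads, had a log2 fold change of −0.54 (SE 0.16). The blood sum was 195 to 233 CPM against 237 to 357 CPM. Slc2a1, the glucose transporter of brain endothelium, pointed the other way, at 124, 108 and 106 CPM against 81.0, 90.5 and 82.5 CPM (log2 fold change 0.41, SE 0.12).

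Single pools differed in region markers. Prkcd, a kinase abundant in thalamus, was at 71.3 CPM in pool 22 and at 17.4 to 25 CPM in the 5 other pools. Tcf7l2, a thalamic transcription factor, was at 20.1 CPM in pool 22 and at 6.67 to 11.7 CPM elsewhere. The cerebellar sum was 97.2 CPM in pool 24 and 98.5 CPM in pool 28, 1 pool of each group, against 29.5 to 36.1 CPM in the others. The choroid plexus gene Aqp1 was at 3.23, 9.98 and 7.83 CPM against 13.2, 7.94 and 20.0 CPM, and the meningeal gene Dcn at 14.7, 20.0 and 29.6 CPM against 25.2, 41.2 and 29.8 CPM. Neither was DE, and the part of dissection in the results was not tested.

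The same switches without lipoic acid (AL>CR and CR>AL, 3 pools each) gave 28 DE genes of 17230 (0.163%), 19 higher (0.11%) and 9 lower (0.0522%) in AL>CR. The difference between the order contrast and the contrast without LA was tested as an interaction over 12 libraries. LA was eaten before the switch in AL+LA>CR and from the switch until death in CR>AL+LA. The presence of LA and the time at which it was eaten therefore cannot be told apart. This interaction was DE for 26 genes (0.151%), 20 below 0 (0.116%) and 6 above 0 (0.0348%), against 1345 genes (7.81%) at an unadjusted p under 0.05, and 16 of the 26 had a symbol. The fold changes of the order with LA and of the order without it were opposite in sign for all 26, and all 20 genes below 0 were higher in CR>AL+LA and AL>CR than in AL+LA>CR and CR>AL. Such opposition is what an interaction test picks out and is given as a description.

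Sdf4, a calcium-binding protein of the Golgi, had the lowest adjusted p of the genes with a symbol. It was at 35.5, 40.8 and 48.7 CPM in AL+LA>CR, 64.2, 62.8 and 67.5 CPM in CR>AL+LA, 56.7, 62.4 and 56.0 CPM in AL>CR, and 33.9, 36.8 and 38.5 CPM in CR>AL. Every pool of CR>AL+LA and AL>CR was above every pool of the 2 other groups, and the interaction was −1.33 on the log2 scale (SE 0.19, edgeR quasi-likelihood adjusted p = 0.000589). Sars, which charges tRNA with serine, showed the same separation, with means of 43.0, 62.1, 68.3 and 39.9 CPM in the same group order (interaction −1.32, SE 0.21, adjusted p = 0.00196). Asrgl1, an asparaginase, had means of 43.7, 66.5, 57.0 and 37.8 CPM (interaction −1.22, SE 0.20, adjusted p = 0.00411).

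Arpp19, which was DE for order alone, was also among these genes. It (ENSRNOG00000020977) had means of 13.8 ± 2.92 CPM in AL+LA>CR, 28.7 ± 3.32 CPM in CR>AL+LA, 22.8 ± 1.19 CPM in AL>CR and 14.7 ± 1.81 CPM in CR>AL (SD, n = 3 pools each), and an interaction of −1.70 (SE 0.27, edgeR quasi-likelihood adjusted p = 0.00196). Every pool of CR>AL+LA and AL>CR was above every pool of the other two groups, which held for 10 of the 26 genes. The test that picked these genes favours such separation, and its share over all genes was not counted, so it is given as a description. Cd74 (interaction −0.83, SE 0.27, adjusted p = 0.334) and Git1 (−0.87, SE 0.20, adjusted p = 0.0662) were not among the 26.

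The other named genes below 0 were Ccdc47, Atp5c1, Naca, Ncl, Ppp1r9b, Ddx3x, Bccip and the further Arpp19 identifier. Naca binds nascent polypeptides at the ribosome, Ncl is nucleolin, Ddx3x is an RNA helicase and Ppp1r9b is spinophilin of dendritic spines. Their interactions ran from −1.40 to −0.90. For Naca, pool 22 was at 38.3 CPM, pool 23 at 63.7 CPM and pool 24 at 83.8 CPM, against 89.3 to 103 CPM in CR>AL+LA, so that the AL+LA>CR pools were far from uniform. Above 0 were the tRNA gene ENSRNOG00000031685 (interaction 1.39, SE 0.30), Rplp1, a ribosomal stalk protein (interaction 0.97, SE 0.18), Alb, serum albumin (2.33, SE 0.47), and Srrm2, a splicing factor (0.84, SE 0.18). Alb was at 48.2, 15.9 and 63.2 CPM in AL+LA>CR, 17.6, 23.6 and 18.5 CPM in CR>AL+LA, 8.61, 5.07 and 9.59 CPM in AL>CR, and 14, 25.5 and 14.4 CPM in CR>AL.

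The Rn28s share was also set beside these genes. It was 2.59, 3.03 and 2.66% in AL>CR and 2.22, 1.60 and 2.29% in CR>AL, so that it was higher in AL>CR than in CR>AL, as the 20 genes were, while AL+LA>CR spread over 0.439 to 3.37% and overlapped CR>AL+LA. Over all 39 libraries the Pearson correlation between log2 CPM and the log2 Rn28s share had a median of 0.42 over the 20 genes, and was 0.54 for Sdf4, 0.73 for Asrgl1, 0.49 for Arpp19 and 0.60 for Cd74. The middle 90% of all genes lay between −0.33 and 0.33. The 20 genes had been picked on libraries that are among the 39, and the Rn28s share followed part of the same pattern. Their correlations are therefore partly built in and are given as a description. With the log2 Rn28s share as a covariate in edgeR's quasi-likelihood fit, 2 genes remained DE for the interaction, both without a symbol and both above 0. They were ENSRNOG00000049138 and ENSRNOG00000046170, whose highest means were in CR>AL. The interactions kept their direction, but their size changed unevenly. It was −1.09 for Sdf4 (−1.33 without the covariate), −1.27 for Sars (−1.32), −1.54 for Arpp19 (−1.70) and −0.90 for Asrgl1 (−1.22). For Naca it moved to −0.66 (−1.21) and for Ppp1r9b to −0.66 (−1.32), while for Bccip it was −1.33 (−1.25). The adjusted p in this fit was 0.0514 for Sdf4 and Sars, 0.0702 for Arpp19, 0.195 for Asrgl1 and 0.604 for Naca and Ppp1r9b. In the order contrast the same covariate gave 13 DE genes, among them 4 of the 6: Cd74 (log2 fold change −1.07), Git1 (−0.74) and both tRNA genes. Arpp19 (−0.93) was no longer DE.

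**Figure D4:**
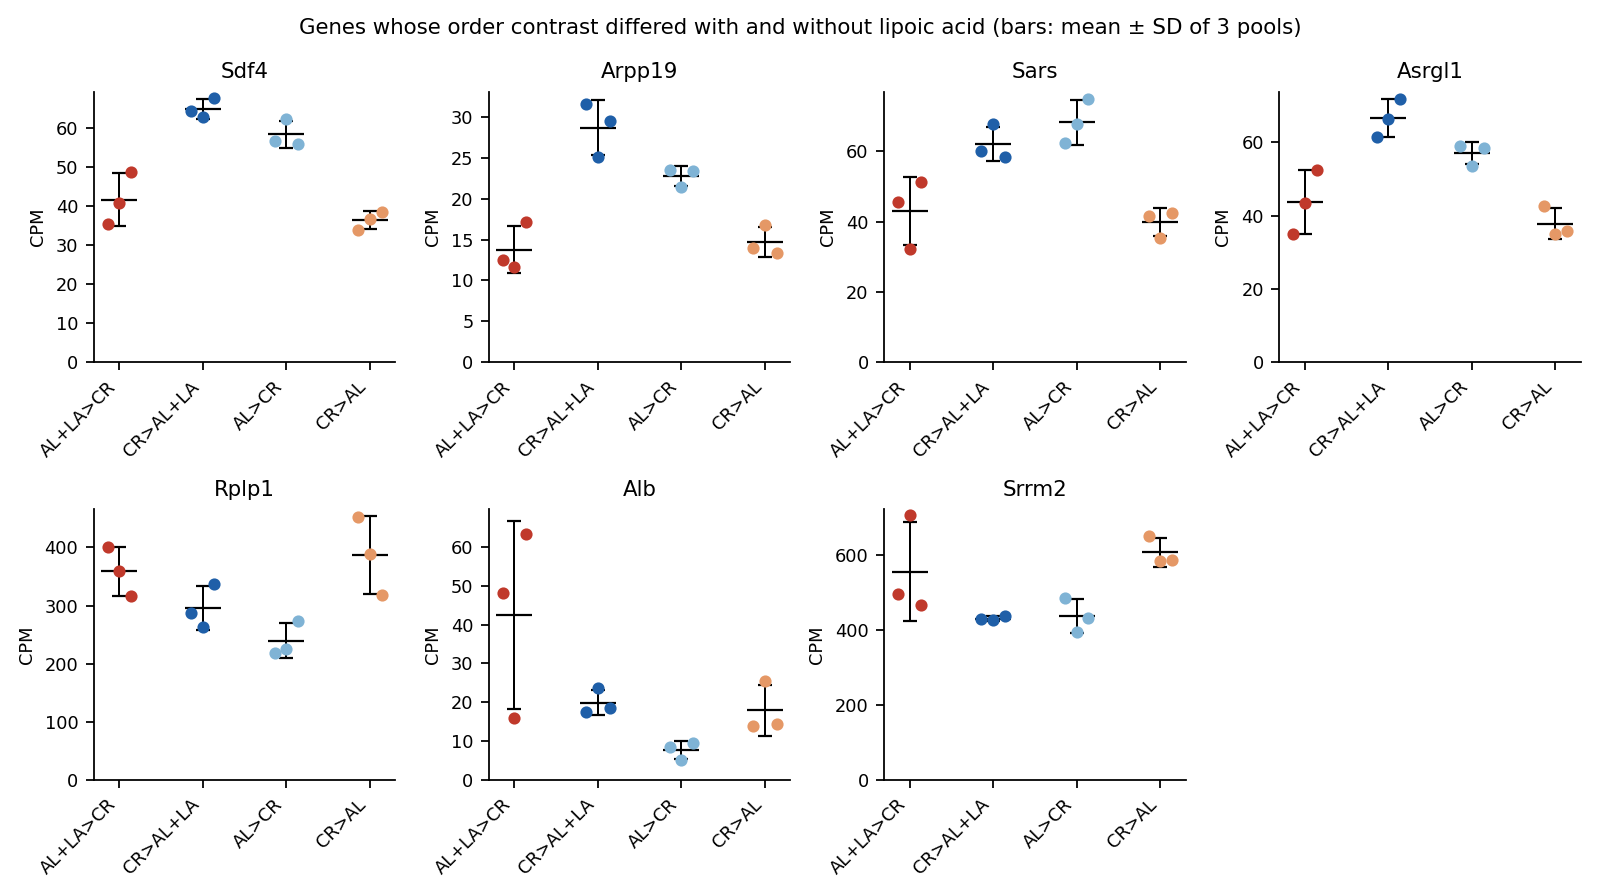
CPM in the 4 switched groups of 7 genes with a symbol that were DE for the interaction, 4 below and 3 above 0; points are pools of 2 rats, with mean ± SD (n = 3). For Sdf4, Arpp19, Sars and Asrgl1 the pools of CR>AL+LA and AL>CR lie above those of AL+LA>CR and CR>AL.

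Rats that had kept the present diets since 2 months of age (lifelong CR and lifelong AL+LA, 3 pools each) did not differ in any gene at an adjusted p under 0.05 (0% of 17230), and 648 genes (3.76%) had an unadjusted p under 0.05 in edgeR's quasi-likelihood test. DESeq2 called 2 genes. The difference between the order contrast and this lifelong contrast was DE for no gene in edgeR (0% of 17230, with 702, or 4.07%, at an unadjusted p under 0.05) or in DESeq2.

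The genes Rbm3 and Gpd1 leaned the same way in the 3 pairs compared here, where 1 group was being restricted and the other fed AL at death. These were picked after their values had been seen. Rbm3, a cold-induced RNA-binding protein, was at 109, 104 and 86.1 CPM in AL+LA>CR and 91.1, 51.3 and 69.9 CPM in CR>AL+LA (log2 fold change 0.50, SE 0.16, not DE). Its log2 fold change was 0.83 (SE 0.12, edgeR quasi-likelihood adjusted p = 0.000314) in AL>CR against CR>AL and 0.65 (SE 0.12, adjusted p = 0.244) in lifelong CR against lifelong AL+LA. Gpd1, glycerol-3-phosphate dehydrogenase, had log2 fold changes of 0.47 (SE 0.17), 0.64 (SE 0.14) and 0.68 (SE 0.20) in the same 3 comparisons, and was DE in the pair without LA alone. Cirbp did not keep 1 direction, with log2 fold changes of −0.11 (SE 0.17), 0.64 (SE 0.15) and 0.65 (SE 0.15) in the same order, and was DE in none.

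For comparison, the globin gene Hba-a2 had a log2 fold change of −0.60 (SE 0.13) with LA and switching, −0.59 (SE 0.15) between the lifelong diets, and 0.10 (SE 0.12) between the switches without LA. The contrast with LA and switching and the lifelong contrast both set restricted rats against AL-fed rats eating LA. The switches without LA also set restricted rats against AL-fed rats. The part of LA, and of blood left in the tissue, in the globin values was not tested. Cry2 was at 0.44 (SE 0.12) in the order contrast, against 0.11 (SE 0.12) between the lifelong diets and 0.05 (SE 0.11) between the switches without LA.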

How the data were processed

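Cerebral cortex RNA was measured in 39 libraries, 6 of which hold the groups compared. The authors depleted ribosomal RNA, sequenced on a SOLiD 5500xl system, mapped the reads with Bowtie to Rnor_5.0 (rn5), dropping reads that mapped to more than 1 place, and obtained a read number for each Ensembl gene from HTSeq. The values they deposited are raw counts. The 5 closing lines that name no gene (reads on no gene, ambiguous or not aligned) were left out of library sizes and tests. In the 6 pools, 34.1 to 41.2% of reads did not align and 80.4 to 82.6% of aligned reads fell on no gene. Residual ribosomal RNA takes up reads that other genes would have held, and multiply mapping reads are lost from near-identical genes. Leaving ribosomal genes out of the order contrast gave the same 6 DE genes.

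A gene was tested if 3 or more of the 39 libraries held it at 1 CPM or above (17230 of 26123 genes). Each contrast was fitted to its own groups with edgeR 4.0.16 (R 4.3.3), TMM scaling, glmQLFit and glmQLFTest, with Benjamini-Hochberg adjustment over all genes tested. CPM was scaled by TMM over 39 libraries. Standard errors are the log2 fold change divided by the root of F. Other settings were RLE scaling, DESeq2 1.42.0, the exact test of edgeR, other filters, pooled fits, ribosomal genes left out and each pool left out in turn. The fits with the Rn28s covariate and with the 7 groups at 28 months other than AL were added after seeing the data. The scripts' tests were tried on simulated counts. Library shares were compared with exact permutation tests (scipy 1.17.1).

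Genes were named by rule: the DE genes with a symbol and separate pools, DE list members and at most 2 others of a list, and at most 5 genes in each direction of an interaction. Named beyond it, after their values were seen, were the tRNA genes, the 4 class II chains, the further Arpp19 and Hspa1b identifiers, the other DE interaction genes, Rbm3, Gpd1 and Cirbp. Some genes that would have been named are not reported here. The members and lists were chosen with earlier results of these data known. Symbols came from the identifier columns of the study's tables, and promoter sequences from RefSeq (GRCr8).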

Additional observations from a re-analysis of the deposited data

Results flagged for a closer look

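The order contrast differed from the contrast without lipoic acid for 26 genes (edgeR's quasi-likelihood test of the interaction, Benjamini-Hochberg adjusted p under 0.05). LA was eaten before the switch in AL+LA>CR and after it in CR>AL+LA, so that its presence and its timing cannot be told apart. Among genes with a symbol, the interaction on the log2 scale was −1.33 for Sdf4, −1.70 for Arpp19, −1.32 for Sars and −1.22 for Asrgl1, and 0.97 for Rplp1, 2.33 for Alb and 0.84 for Srrm2. With the Rn28s share as a covariate 2 of the 26 remained DE. The interaction was then −1.27 for Sars, −1.54 for Arpp19, −1.09 for Sdf4 and −0.90 for Asrgl1, and for Naca it moved from −1.21 to −0.66.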

How the results depend on the processing

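The direction of the 6 genes DE for the order was kept in all 15 alternatives, while their number was not: 46 genes were DE without the filter on low counts, 13 with the log2 Rn28s share as a covariate, 0 with all 13 groups in one fit (771 at an unadjusted p under 0.05) and 0 with the 7 groups at 28 months other than AL in one fit (1117 at an unadjusted p under 0.05). Leaving out 1 pool gave 0 (without pool 30) to 24 (without pool 24). For the lipoic acid interaction, DESeq2 called 62 genes, no filter 113, all 13 groups 6, the 7 groups 15 and the Rn28s covariate 2, and leaving out 1 pool gave 10 (without pool 21 or 27) to 93 (without pool 24). The difference between the order contrast and the lifelong contrast gave 31 genes without the filter and 0 in each other setting run. The switches without LA gave 106 genes without the filter, 2 with all 13 groups, 5 with the 7 groups and 13 to 43 with 1 pool left out (without pools 20 and 21). The lifelong diets gave 2 genes in DESeq2, 57 without the filter and 0 to 3 with 1 pool left out. In the order contrast a few log2 fold changes near 0 or resting on pool 22 changed sign: with the Rn28s covariate Prkcd was −0.19, Tcf7l2 −0.20, ATP8 0.11 and Amt 0.016. ATP8 ran from −0.58 to 0.026 and Amt from −0.14 to 0.17 with 1 pool left out, and Amt was 0.0 when each library had to hold 10 counts and 0.006 with all 13 groups. Without the filter more genes were tested, and the cause of the other changes was not tested. No paired analysis was possible because the pool numbers are not shared between groups. Each call rests on 3 pools a group and 2754552 to 4984254 reads on genes a pool, and the size of difference that this depth can detect was not measured.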
